A study of Mus musculus with 8 samples.

Results

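The DNA topoisomerases and the enzymes that clear trapped topoisomerases from DNA were examined by RNA-seq in primary and metastatic Myc-CaP tumors. The family was taken as 8 genes by name, which are 6 topoisomerases (Top1, Top1mt, Top2a, Top2b, Top3a and Top3b) and 2 tyrosyl-DNA phosphodiesterases (Tdp1 and Tdp2), out of 38115 genes listed in the count data. All 8 genes were found and all 8 passed the filter on low counts.

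Topoisomerases cut DNA, let it unwind or pass through the break, and seal it again, staying bound to the DNA end by a tyrosine while the break is open. The type I enzymes open a single strand. Top1 relaxes supercoils ahead of polymerases in the nucleus and Top1mt does so in mitochondria, whereas Top3a and Top3b act on single strands, Top3a in the dissolution of recombination intermediates and Top3b also on RNA. The type II enzymes cut both strands and pass a second duplex through the gap. Top2a is made mainly by dividing cells, peaks late in the cell cycle and is needed to condense and separate chromosomes, while Top2b is made in dividing and resting cells alike and works in transcription and at chromatin loop anchors. Tdp1 releases Top1 and Tdp2 releases type II enzymes that stay trapped on DNA, which is how camptothecins and etoposide act on their targets.

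The tumors came from Myc-CaP cells, a murine prostate cancer line derived from a mouse with a prostate-directed MYC transgene. Androgen sensitive (Myc-CaP/AS) or castrate resistant (Myc-CaP/CR) cells were placed in the anterior prostate of male FVB mice, some intact and some castrated beforehand, and the primary and metastatic tumors that grew were taken for RNA. There were 4 primary and 4 metastatic tumors, 2 AS and 2 CR in each set, named here AS1, AS2, CR1 and CR2. These numbers carry no pairing, because the labels call the metastases matched without saying to which primary tumor. The state of the host, the site of each metastasis, the age of the mice and whether animals were pooled are not given for each tumor, so a p-value measures the spread between these 8 tumors. The AS and CR tumors grew from separate Myc-CaP lines, and their libraries carry separate number series in the labels, so phenotype, line and library series cannot be told apart.

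Total counts lay between 20905806 and 91886163 per tumor, and they moved with phenotype: from 61237285 to 91886163 in AS tumors and from 20905806 to 76887592 in CR tumors. The lowest count of any family gene was 218 reads, for Top3a in primary CR2, and the highest was 21261 reads, for Top2b in primary CR1. Values below are normalized counts, which are reads scaled by TMM factors so that every tumor has the same effective library size. Among prostate epithelium markers, Krt8 (2159 to 42146 normalized counts), Foxa1 and Hoxb13 were present in every tumor, whereas Krt18 (at most 41 reads), Cdh1 (at most 38), Pbsn (at most 34) and Epcam (at most 22) were at or near 0. Leukocyte markers summed to between 316 and 464 CPM (reads scaled to a fixed library total) in AS tumors and between 193 and 418 CPM in CR tumors, with Ptprc and Lyz2 present and Cd3e at most 10 reads. Bulk counts cannot tell fewer cells of a type from less RNA per cell.

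The 8 genes lie on 7 chromosomes of mm10 (GENCODE M21), and all are protein coding. Top2a is at chr11:98992943-99024189 on the minus strand and Top2b at chr14:16365179-16435462 on the plus strand, each with 36 exons in its longest transcript. Top1 (chr2:160645888-160722764, plus strand, 21 exons) and Top1mt (chr15:75657035-75678800, minus strand, 14 exons) encode the nuclear and the mitochondrial type IB enzymes. Top3a (chr11:60740058-60777365, minus strand, 19 exons) and Top3b (chr16:16870736-16892990, plus strand, 17 exons) encode the type IA enzymes. Tdp1 is at chr12:99884517-99955219 on the plus strand with 14 exons, and Tdp2 at chr13:24831679-24842153 on the plus strand with 7 exons.

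The promoters of Top2a and Top2b are shown because these are the type II enzymes the results turn on, and that of Top1 because it is the main type I enzyme. RefSeq promoter sequences, from 250 bases before to 50 bases after the start site, were found for 5 of the 8 genes (Top1, Top2a, Top2b, Top3b and Tdp1). The sequences below are given 5′ to 3′ on the strand of the gene in GRCm38.p6, and capitals mark the CCAAT box on either strand (CCAAT or ATTGG), the sequence that the NF-Y factor recognizes. Top2a lies in the window chr11:99024140-99024439 on the minus strand, Top2b in chr14:16364956-16365255 and Top1 in chr2:160645647-160645946 on the plus strand.
Top2a: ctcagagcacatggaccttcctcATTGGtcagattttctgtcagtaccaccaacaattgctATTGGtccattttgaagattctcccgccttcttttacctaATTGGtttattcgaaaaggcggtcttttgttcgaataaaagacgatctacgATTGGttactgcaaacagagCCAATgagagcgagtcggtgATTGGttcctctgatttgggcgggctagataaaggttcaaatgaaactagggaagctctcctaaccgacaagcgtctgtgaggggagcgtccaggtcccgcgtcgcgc
Top2b: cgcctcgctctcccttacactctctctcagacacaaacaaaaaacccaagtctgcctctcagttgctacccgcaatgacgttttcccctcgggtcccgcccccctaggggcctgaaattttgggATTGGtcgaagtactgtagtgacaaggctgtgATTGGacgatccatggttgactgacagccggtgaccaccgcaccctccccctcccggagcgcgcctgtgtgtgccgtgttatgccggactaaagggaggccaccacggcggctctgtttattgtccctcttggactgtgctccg
Top1: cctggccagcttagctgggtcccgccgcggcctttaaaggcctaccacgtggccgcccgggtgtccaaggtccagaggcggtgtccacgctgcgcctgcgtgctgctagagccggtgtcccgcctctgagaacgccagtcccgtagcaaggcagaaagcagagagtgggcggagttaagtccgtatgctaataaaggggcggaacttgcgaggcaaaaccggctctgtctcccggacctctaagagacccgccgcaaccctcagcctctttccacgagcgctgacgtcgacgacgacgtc

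The Top2a window held 6 CCAAT boxes, a number reached in 0.0791% of 32851 mouse promoters of the same length. They lay between positions -227 and -54 from the start site, 5 of them on the strand opposite to the gene. Top2b held 2, and at least 2 were found in 11.7% of promoters. Top3b held 1, and Top1 and Tdp1 held 0, where 37.4% of promoters had at least 1. The cell cycle homology region motif TTTGAA, searched on both strands, occurred 2 times in the Top2a window (2.31% of promoters had 2 or more) and 1 time in Tdp1 (17.9% had 1 or more). The GC box GGGCGG, also on both strands, was found 3 times in Top1 (10.7% had 3 or more) and 1 time each in Top2a, Top2b and Tdp1 (35.7% had 1 or more). No match of a motif overlapped another. These matches describe the letters in the window and are not measured binding sites.

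Top2a was the gene of the family that varied most between tumors. The primary tumors AS1, AS2, CR1 and CR2 had 2704, 1811, 8184 and 1520 normalized counts, and the metastatic tumors in the same order had 8091, 5844, 4861 and 8340. The metastases all lay above 3 of the primary tumors, but primary CR1 was higher than 3 of the 4 metastases, so the groups overlapped. The highest tumor was 5.49-fold above the lowest, and the coefficient of variation over the 8 tumors was 56.1%. The other 7 genes were more even, with coefficients of variation from 14.8% for Top3b to 21.04% for Top2b.

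**Figure D1:**
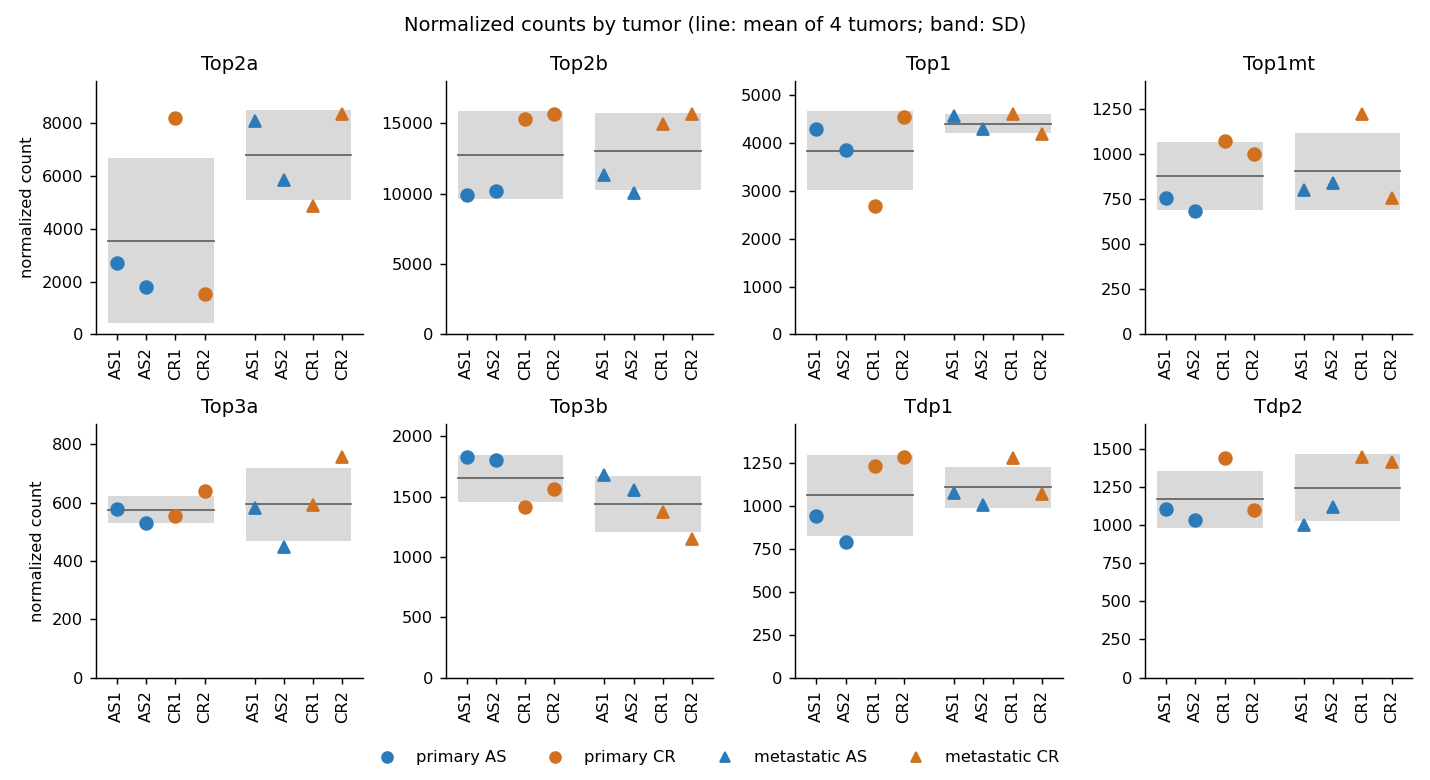
Normalized counts (vertical axes, starting at 0) of the 8 genes in each tumor, with circles for primary and triangles for metastatic tumors, blue for AS and orange for CR; lines are means of 4 tumors and bands the SD. Top2a separates 3 low primary tumors from primary CR1 and the metastases, and Top2b separates the 4 CR tumors from the 4 AS tumors.

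To ask how the family differed between metastatic and primary disease, all 4 metastatic tumors were compared with all 4 primary tumors. Top2a averaged 6784 ± 1704 in metastatic and 3555 ± 3127 in primary tumors (SD, n = 4 each), and 13 of the 16 metastatic-primary pairs of tumors had the higher value in the metastasis. The fitted log2 fold change was 0.93 (1.91-fold) with an SE of 0.51. It did not pass the test (edgeR quasi-likelihood, unadjusted p = 0.0973, adjusted p = 0.997). The exact two-sided permutation test of the 8 values gave p = 0.143, where the smallest p that 4 against 4 tumors allows is 0.0286. Primary CR1 set much of this spread. Without it the other 3 primary tumors averaged 2012 ± 617 (SD, n = 3), and the fitted log2 fold change was 1.75. Its unadjusted p was then 0.000297, still with an adjusted p of 0.238 (edgeR). Top2a passed only when DESeq2 was used without primary CR1, an alternative added after seeing the data, at a log2 fold change of 1.76 and an adjusted p of 1.28e-05. The study itself, by DESeq, reported Top2a as significantly higher in metastatic tumors. Its qRT-PCR, on the sequenced RNA and on further tumors, also gave an increase. The sequencing comparison of the study used 3 primary tumors, fewer than the 4 analysed here, and which ones is not given.

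The difference in Top2a was 1.64 on the log2 scale within the AS tumors (edgeR, unadjusted p = 0.00101, adjusted p = 0.205). Within the CR tumors it was 0.49 (edgeR, unadjusted p = 0.541, adjusted p = 0.999). In the AS tumors both metastases (8091 and 5844) were above both primary tumors (2704 and 1811). In the CR tumors they were not, since primary CR1 (8184) stood above metastatic CR1 (4861). The difference between these 2 changes, tested as an interaction, was −1.23 with an SE of 0.94 and did not pass (edgeR, adjusted p = 0.964). No gene passed the interaction test (0 of 18889, 0%). An unadjusted p under 0.05 was found for 517 of these 18889 genes, which is a share below 0.05.

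No family gene passed the test between metastatic and primary tumors over all 8 tumors. There were 0 of 8 genes called by edgeR, 0 by DESeq2 and 0 at an unadjusted p under 0.05 in the main edgeR fit. Among all 17104 genes tested, 0% were called, 2.68% had an unadjusted p under 0.05 and 1.7% had groups that did not overlap. Fitted values were above 0 for 7 of the 8 genes and below 0 for Top3b, with a median log2 fold change of 0.05 against −0.03 over all genes. These signs are not firm, since those of Top2b, Top3a, Top1mt and Tdp1 turned in at least 1 alternative analysis.

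The other type II enzyme, Top2b, was level between the 2 tumor types. It averaged 12995 ± 2710 in metastatic and 12761 ± 3122 in primary tumors (SD, n = 4 each), a fitted log2 fold change of 0.03 with an SE of 0.24 (edgeR, adjusted p = 0.997). Top1 was at 4292, 3857, 2684 and 4533 in primary AS1, AS2, CR1 and CR2, and at 4554, 4283, 4603 and 4177 in the metastases in the same order. Primary CR1 was thus the lowest tumor for Top1 and the highest primary tumor for Top2a. The log2 fold change of Top1 was 0.20 with an SE of 0.19 (edgeR, adjusted p = 0.997), and it was 0.06 without primary CR1.

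The low-level type IA enzymes gave small differences. Top3a averaged 594 ± 126 in metastatic and 576 ± 47.3 in primary tumors, and Top3b averaged 1441 ± 232 and 1651 ± 197 (SD, n = 4 each). The fitted log2 fold changes were 0.04 for Top3a and −0.20 for Top3b. For Top1mt, Tdp1 and Tdp2 they were 0.04, 0.06 and 0.09, each smaller than its SE. The adjusted p-values of these 5 genes were all 0.997 (edgeR).

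**Figure D2:**
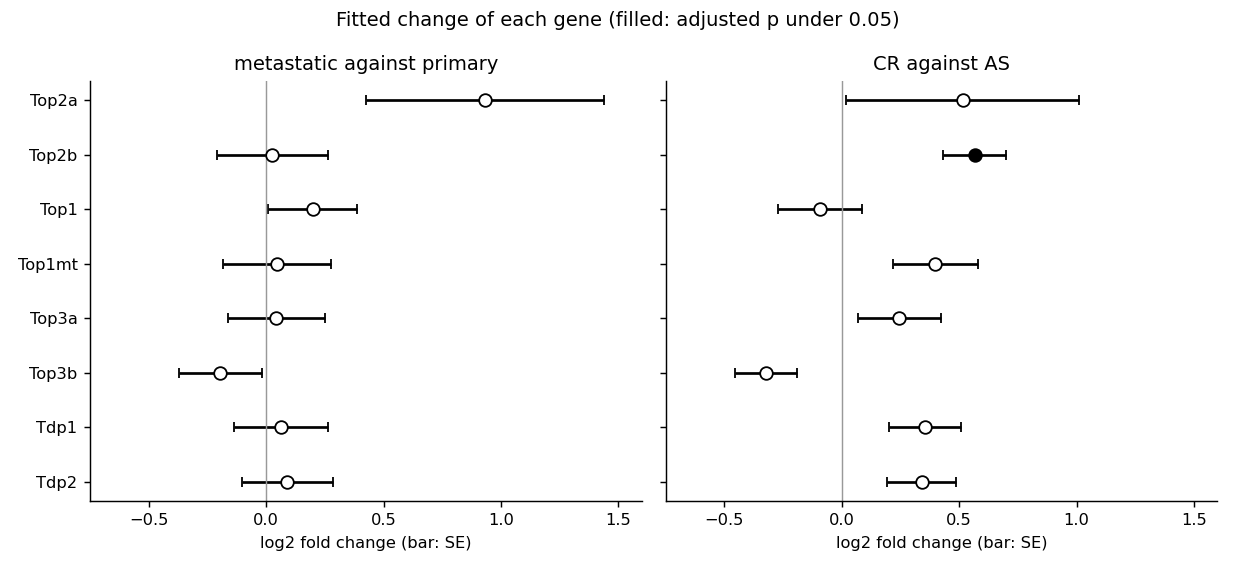
Fitted log2 fold change (horizontal axis) of each gene, with its SE as a bar, for metastatic against primary tumors (left) and CR against AS tumors (right). The only filled point, with an adjusted p under 0.05, is Top2b in the CR-AS comparison at 0.57.

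To ask how the family differed by androgen phenotype, the 4 CR tumors were compared with the 4 AS tumors, with tumor type as a covariate. Top2b was higher in CR tumors. In AS tumors it was at 9909 and 10216 normalized counts in primary AS1 and AS2, and at 11344 and 10067 in metastatic AS1 and AS2. In CR tumors it was at 15283 and 15635 in primary CR1 and CR2, and at 14929 and 15639 in metastatic CR1 and CR2. Every CR tumor was above every AS tumor, and the gap between the phenotypes was wider than the range within either. The means were 15372 ± 339 in CR and 10384 ± 652 in AS tumors (SD, n = 4 each).

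The fitted log2 fold change of Top2b was 0.57 (1.48-fold) with an SE of 0.13 and passed the test (edgeR, adjusted p = 0.0313). The exact two-sided permutation test gave p = 0.0286, the smallest that 4 against 4 tumors allow. Both tests treat the 8 tumors as independent, although a metastasis may share an animal with a primary tumor. These p-values may therefore be too small. The log2 difference was 0.62 within primary tumors and 0.52 within metastatic tumors. The call depended on the analysis, although the direction did not. Of 15 alternatives, 5 kept the adjusted p under 0.05 (lowest 4.17e-05 with DESeq2) and 10 did not (highest 0.490 with primary tumors alone). Leaving out any tumor other than primary CR1 raised the adjusted p to between 0.0630 and 0.117, with log2 fold changes from 0.53 to 0.61. Without primary CR1 it was 0.0178.

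Several other measures differed between phenotypes, some without overlap of the groups, as for Top2b, and others with overlap. Total counts were lower in CR than in AS tumors with the exception of primary CR1. The summed liver markers, mostly fibrinogen chain Fgb, were between 3714 and 10086 CPM in AS tumors and between 95.0 and 1975 CPM in CR tumors, while Alb, the defining liver marker, had at most 99 reads in any tumor. The summed prostate epithelium markers lay between 1355 and 2453 CPM in AS and between 2540 and 3542 CPM in CR tumors, with 1 of 6 tested called higher in CR. Some markers of host cells had lower medians in CR. Fitted values were above 0 for 0 of 5 red blood cell markers (median −0.89), 0 of 5 leukocyte markers (median −0.37) and 1 of 5 endothelium markers (median −0.40). For stroma markers it was 2 of 7 (median −0.06), where the median over all genes was −0.01. None of the markers in these host cell lists was called, and the summed level of each list overlapped between AS and CR tumors. The part of these measures in the difference of Top2b was not tested. Top2b overlaps Rarb, the retinoic acid receptor beta gene on the opposite strand, over 1793 exonic bases, and 1516 of the 10235 windows of a read's length in the transcript Top2b-201 (14.8%) also matched Rarb with up to 2 mismatches. Rarb itself had between 9 and 72 reads per tumor. Of the other members, Top1mt had 1 shared window and the remaining 6 genes had 0.

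The remaining genes did not pass between phenotypes. The call of Top2b made 1 of 8 family genes (higher in CR), where 12.2% of all 17104 genes were called and 6.16% were called higher in CR. At an unadjusted p under 0.05 there were 4 genes, with Top2b, Tdp1 and Tdp2 higher and Top3b lower in CR, where the background was 28.8%. Top2b was also the 1 gene of 8 whose phenotypes did not overlap, against 18.9% of all genes. The median log2 fold change of the 8 genes was 0.35, and −0.01 over all genes.

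Both phosphodiesterases had higher means in CR tumors, and neither passed. Tdp1, which acts on trapped Top1, was at 941, 788, 1075 and 1006 in primary AS1 and AS2 and metastatic AS1 and AS2, and at 1231, 1282, 1275 and 1068 in the CR tumors in the same order. Of 16 pairs of CR and AS tumors, 15 had the higher value in the CR tumor, and the phenotypes overlapped by metastatic CR2 and metastatic AS1. The fitted log2 fold change was 0.36 with an SE of 0.15 (edgeR, adjusted p = 0.166). Tdp2, which acts on trapped type II enzymes, was at 1104, 1030, 1002 and 1119 in the same AS tumors and at 1442, 1096, 1443 and 1416 in the CR tumors. Here 3 CR tumors lay close together above every AS tumor, and primary CR2 lay among the AS tumors. Its log2 fold change was 0.34 with an SE of 0.15 (edgeR, adjusted p = 0.164).

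The type I enzymes differed in sign between phenotypes without passing. Top3b was at 1827, 1801, 1683 and 1559 in primary AS1 and AS2 and metastatic AS1 and AS2, and at 1417, 1561, 1371 and 1152 in the CR tumors in that order. Only 1 of 16 pairs had the higher value in the CR tumor, primary CR2 against metastatic AS2. The fitted log2 fold change was −0.32 with an SE of 0.13 (edgeR, adjusted p = 0.141). Top1mt was at 757, 685, 800 and 843 in the AS tumors and at 1072, 1002, 1223 and 760 in the CR tumors. Its log2 fold change was 0.40 with an SE of 0.18 (edgeR, adjusted p = 0.184), and metastatic CR2 was the CR tumor that lay within the AS range.

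Top3a was at 578, 531, 582 and 448 in the AS tumors and at 553, 641, 592 and 755 in the CR tumors. The ranges overlapped, and the log2 fold change was 0.25 with an SE of 0.18 (edgeR, adjusted p = 0.394). Top1 averaged 3999 ± 896 in CR and 4246 ± 289 in AS tumors (SD, n = 4 each), with a log2 fold change of −0.09 and an SE of 0.18 that became 0.05 without primary CR1. Top2a averaged 5726 ± 3231 in CR and 4612 ± 2893 in AS tumors, with a log2 fold change of 0.51 and an SE of 0.49 (edgeR, adjusted p = 0.531). That value turned to −0.28 without primary CR1 and was −0.07 within metastatic tumors, so Top2a gave no stable direction by phenotype.

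Levels of different genes were compared as normalized counts per kilobase of exon, taking the union of all annotated exons as the length. By this measure Top2b was highest, at 881 ± 185, followed by Top2a at 574 ± 322 and Top1mt at 437 ± 91.3 (SD, n = 8 each). Top1 was at 395 ± 60.5, Tdp2 at 367 ± 58.5 and Top3b at 184 ± 27.2. Tdp1, at 136 ± 21.8, and Top3a, at 127 ± 19.3, were lowest.

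Neighbours in this order were often not separated. Top2b was above Top2a in 7 of 8 tumors, the exception being metastatic AS1, whereas Top2a was above Top1mt in 4 of 8 and Top1mt above Top1 in 4 of 8. Top1 was above Tdp2 in 6 tumors and Tdp1 above Top3a in 5. Tdp2 was above Top3b, and Top3b above Tdp1, in all 8 tumors. The order depended on the length used, and which transcripts these tumors make was not measured. With the longest annotated transcript in place of all exons, Top1 took rank 2 at 1069 behind Top2b at 1246, with Top2a at 990 and Top1mt at rank 5 with 469. By that length Top2a was above Top2b in 4 of 8 tumors, metastatic AS1, AS2 and CR2 and primary CR1, and had rank 1 in the same 4.

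**Figure D3:**
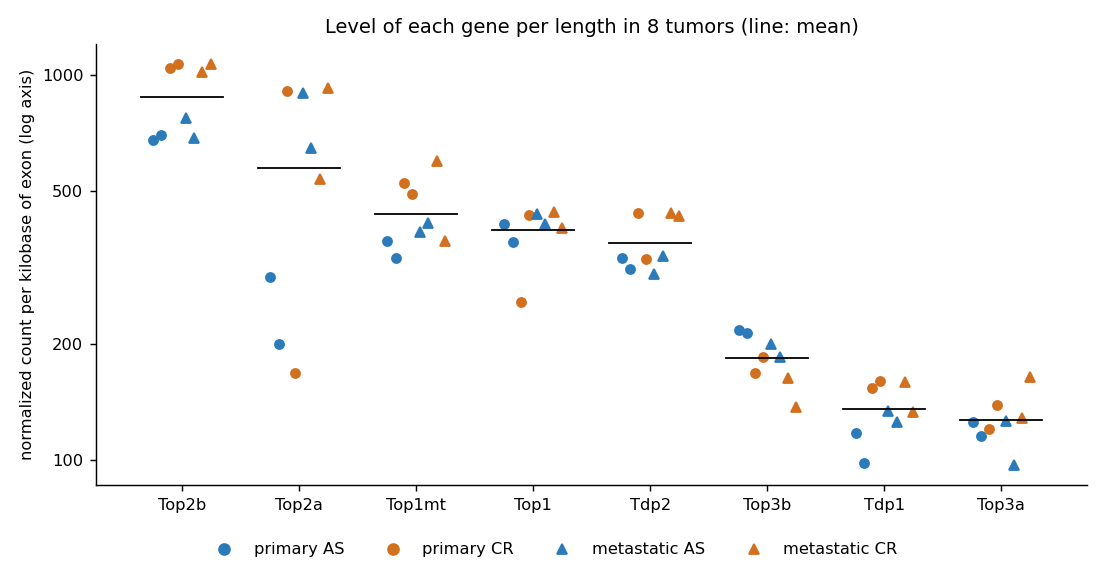
Normalized count per kilobase of exon (vertical log axis) of each gene in the 8 tumors, in order of the mean (lines), with circles for primary and triangles for metastatic tumors, blue for AS and orange for CR. Top2a spans 169 to 925, wider than any other gene, and Tdp1 and Top3a lie lowest at 136 and 127 on average.

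The place of Top2a within the family changed from tumor to tumor. Per kilobase it had rank 1 of the 8 genes in metastatic AS1, rank 2 in metastatic AS2, metastatic CR2 and primary CR1, and rank 3 in metastatic CR1. In the remaining primary tumors it had rank 5 in AS1 and rank 6 in AS2 and CR2. As a share of the type II level (Top2a plus Top2b, per kilobase), Top2a made up 30.7%, 22.3%, 46.5% and 13.6% in primary AS1, AS2, CR1 and CR2, and 53.6%, 48.5%, 34.6% and 46.4% in the metastases in the same order. The metastatic shares were above those of the 3 low primary tumors, and primary CR1 lay among them. With the longest transcripts as lengths the shares were higher, from 16.1% in primary CR2 to 58.5% in metastatic AS1, with primary CR1 at 51.5%.

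**Figure D4:**
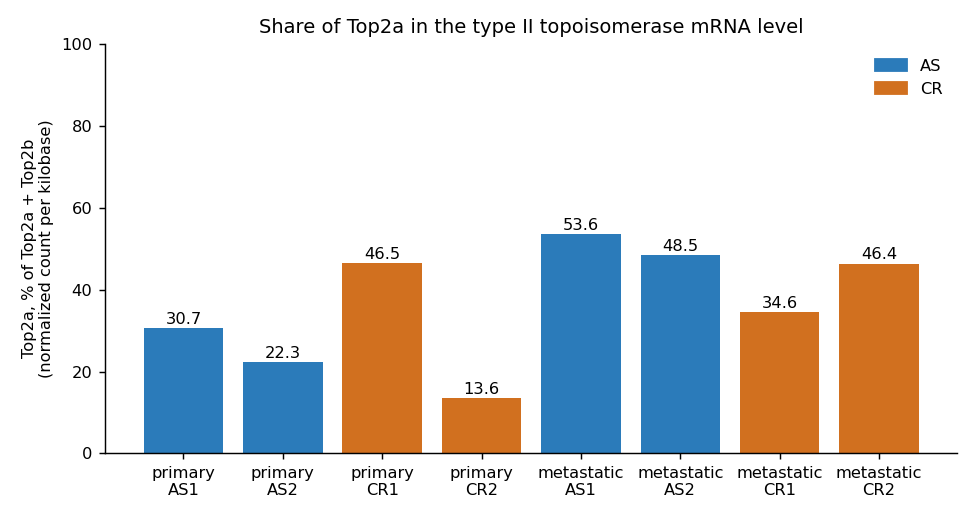
Share of Top2a in the summed Top2a and Top2b level (vertical axis, percent of normalized counts per kilobase of exon, from 0 to 100) in each tumor, with AS in blue and CR in orange. The bars run from 13.6% in primary CR2 to 53.6% in metastatic AS1, and primary CR1 reaches 46.5%.

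Ratios of read counts within a tumor do not depend on how libraries are scaled. The Top2a to Top2b count ratio was 0.273, 0.177, 0.536 and 0.0972 in primary AS1, AS2, CR1 and CR2, and 0.713, 0.580, 0.326 and 0.533 in the metastases in the same order. On the log2 scale the ratio was −0.95 ± 0.48 in metastatic and −2.16 ± 1.04 in primary tumors, a difference of 1.21 (exact two-sided permutation p = 0.0857, adjusted p = 0.533 over 8 ratio tests). For Top2a to Top1 the difference was 1.02 (exact permutation p = 0.2, adjusted p = 0.533), and for Top2a to Top3a it was 1.22 (exact permutation p = 0.143, adjusted p = 0.533). The metastases thus had the higher mean Top2a whichever of these 3 family genes it was set against, and no ratio passed. Between phenotypes the Top2a to Top2b ratio differed by −0.29 (exact permutation p = 0.714, adjusted p = 0.914).

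Primary CR1 also stood apart in the Top2a to Top1 count ratio. This ratio was 3.05 there, above the 0.335 to 0.630 of the other primary tumors and the 1.06 to 2.0 of the metastases. Against Mki67, a proliferation marker made by cycling cells, Top2a gave a ratio of 2.11 in primary CR1 and of 0.745 to 1.29 in the other 7 tumors. Its mean log2 ratio to Mki67 differed by −0.09 between metastatic and primary tumors (exact permutation p = 0.8, adjusted p = 0.914). In their own fits the log2 fold changes were 0.93 for Top2a and 1.29 for Mki67.

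Over the 8 tumors no other family gene followed Top2a closely. The correlation of log2(CPM + 1) with Top2a was 0.50 for Tdp2, 0.28 for Tdp1, 0.21 for Top2b, 0.15 for Top1mt and 0.06 for Top3a, and it was −0.28 for Top1 and −0.57 for Top3b (Pearson r, n = 8). The Spearman rank correlation was 0.40 for Tdp2, 0.02 for Tdp1, 0.33 for Top2b, 0.14 for Top1mt, 0.12 for Top3a, −0.29 for Top1 and −0.62 for Top3b. These are descriptions, since each pair of values shares a library and the metastases may share an animal with a primary tumor. That of Top1 rested on primary CR1, without which r was 0.26. The correlations of Top2b and Tdp1 were 0.62 and 0.75 without primary CR2, and that of Tdp2 was 0.80 without metastatic AS1.

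Among 11587 protein-coding genes with a mean of at least 1 CPM, the 10 most like Top2a had Pearson r from 0.981 to 0.991 over the 8 tumors. They were Brca1 (repair by homologous recombination), 2810417H13Rik (the PCNA-associated factor Pclaf), the kinesins Kif20b, Kif11, Kif18b and Kif15, the spindle checkpoint kinase Ttk, the cyclosome inhibitor Fbxo5, the histone acetyltransferase Hat1 and the condensin subunit Smc2. Their own fitted metastatic-primary log2 values ran from 0.35 for Hat1 to 1.05 for Ttk, beside 0.93 for Top2a. Of the family, Tdp2 came nearest at place 1463 and Top3b was farthest at place 10838.

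The genes most like Top2b were Ly75 (an endocytic receptor), Golga5 (a golgin), Dhx36 (a helicase for quadruplex nucleic acids), Arhgap5 (a GTPase-activating protein) and Pof1b (an actin-binding protein), with r from 0.982 to 0.985. The 8 Top2b values form separate AS and CR groups, and r was not taken within them. Tdp1, at r = 0.81 and place 839, was the family gene nearest to Top2b, and Top3b, at −0.78, ran opposite.

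The mitotic genes, 28 in all without Top2a, were lowest in the same 3 primary tumors as Top2a. Their mean log2(CPM + 1) was 2.93, 2.57, 4.16 and 2.63 in primary AS1, AS2, CR1 and CR2, and 4.15, 4.08, 3.49 and 4.59 in the metastases. Between metastatic and primary tumors all 28 had fitted values above 0, with a median of 1.04, and 0 passed (edgeR), while 13 had an unadjusted p under 0.05. Among all 17104 genes tested, 7901 had fitted values above 0 and 2.68% had an unadjusted p under 0.05. The list was chosen with earlier results of these data known. Examples from it are Mki67 at 1.29 (SE 0.32), the kinetochore protein Cenpf at 1.25 (SE 0.39) and the cytokinesis motor Kif23 at 1.24 (SE 0.43), each with an adjusted p of 0.997. Stroma markers had fitted values below 0 in the same comparison, 0 of 7 above 0 with a median of −0.48 and 1 with an unadjusted p under 0.05, and their part was not tested. Between phenotypes, 27 of the 28 had fitted values above 0 in CR (median 0.48), against 8420 of all 17104 genes (median −0.01). An unadjusted p under 0.05 was found for 4 of the 28, against 28.8% of all genes. Called higher in CR were 2 of the 28, a share near the 6.16% of all genes called higher. Both are condensin subunits, Ncaph by 1.13 (adjusted p = 0.0164) and Smc4 by 0.93 (adjusted p = 0.0251). Condensin works with Top2a on mitotic chromosomes.

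**Figure D5:**
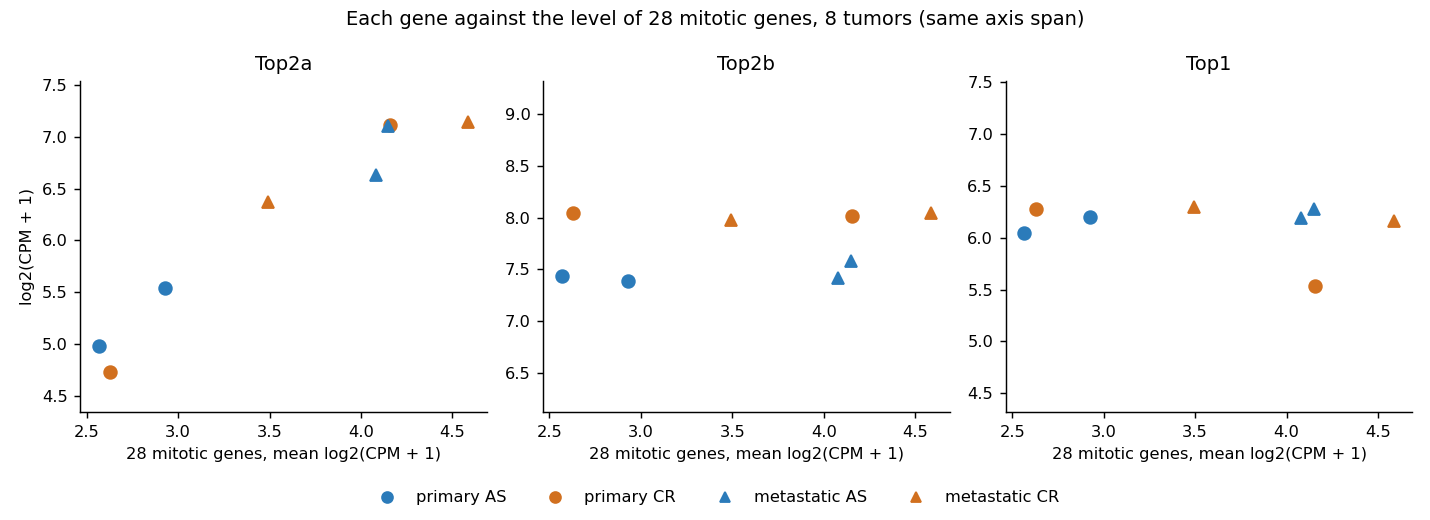
Level of Top2a, Top2b and Top1 (vertical axes, log2(CPM + 1), same span) against the mean level of 28 mitotic genes (horizontal axis) in the 8 tumors, with circles for primary and triangles for metastatic tumors, blue for AS and orange for CR. Top2a rises from 4.73 to 7.15 along the axis, whereas Top2b stays between 7.98 and 8.05 in CR and between 7.39 and 7.59 in AS tumors, and Top1 lies between 6.04 and 6.30 except in primary CR1 at 5.53.

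Of 20 S phase genes, 18 had metastatic-primary values above 0 (median 0.37) and 0 passed. An unadjusted p under 0.05 was found for 1 of them, against 2.68% of all genes. Rrm2, a ribonucleotide reductase subunit, was the one with the smallest p, at 0.82 (SE 0.34). Between phenotypes 1 of 20 passed, against 12.2% of all genes. It was the replication helicase factor Cdc45, which was lower in CR by −1.13 on the log2 scale (adjusted p = 0.0367). Of 11 factors described at Top2a-type promoters, Foxm1 (1.39), Mybl2 (1.29) and Lin9 (0.85) had an unadjusted p under 0.05 between metastatic and primary tumors. The share of all genes with such a p was 2.68%. Between phenotypes 1 factor, Lin9 (0.66), had such a p, against 28.8% of all genes. In either comparison 0 of these factors passed (edgeR).

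Partner genes of the other members were read in the same fits. Between phenotypes 12.2% of all genes were called, and the counts below, from short lists, are to be read against that share. For Top3a and Top3b, 1 of 6 partners passed between phenotypes. Blm, the helicase that works with Top3a, was higher in CR tumors (529 ± 183 against 300 ± 136 in AS, SD, n = 4 each), by 0.88 on the log2 scale (adjusted p = 0.0300). Fmr1, whose protein is linked to Top3b through Tdrd3, was at 0.52 (adjusted p = 0.0508). Of 10 loop anchor genes that act with Top2b, 1 passed. Cohesin subunit Smc1a was higher in CR by 0.74 (adjusted p = 0.0216), and the anchor protein Ctcf was at 0.38 (adjusted p = 0.116). None of the 16 passed between metastatic and primary tumors (0 by edgeR), and 1, Blm, had an unadjusted p under 0.05, against 2.68% of all genes.

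Repair genes that act after Tdp1 or Tdp2, or in their place, were mixed. Of 12 genes that remove or repair Top1 adducts, 0 passed in either comparison. Between phenotypes 2 had an unadjusted p under 0.05, among them the nuclease subunit Mus81 at −0.89, where the share of all genes was 28.8%. Of 16 genes for type II adducts, 3 passed between phenotypes, against 12.2% of all genes. Rbbp8 and Rad50, which resect or tether broken ends, were higher in CR by 0.79 (adjusted p = 0.0242) and 0.63 (adjusted p = 0.0411). Prkdc, the kinase of end joining, was lower in CR at −0.80 (adjusted p = 0.0319). Between metastatic and primary tumors, 0 of the 28 genes passed and 0 had an unadjusted p under 0.05 (edgeR), the latter against 2.68% of all genes.

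Of 4 efflux pumps that carry topoisomerase drugs, 1 passed between phenotypes, against 12.2% of all genes. Abcb1a, a P-glycoprotein gene, was at 4538 ± 1170 in AS and 2137 ± 274 in CR tumors (SD, n = 4 each), lower in CR at −1.07 on the log2 scale (adjusted p = 0.0147). Its paralog Abcb1b was at 1593 ± 497 and 2639 ± 708, or 0.77 higher, and did not pass (adjusted p = 0.0574). The paper describes keeping unique matches, which would drop reads that match both paralogs, but the submitters' processing notes name another aligner. The counts of both paralogs are thus uncertain. The meiotic relatives Spo11 and Top6bl were too low to test, summing to at most 1.13 CPM in any tumor.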

How the data were processed

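The members and gene lists were chosen with earlier results of these data known. RNA from 8 tumors was extracted with TRIzol, depleted of ribosomal RNA, made into stranded libraries and sequenced from both ends. Reads were aligned by the authors to mm10 (the paper's methods name Bowtie, unique matches with up to 2 mismatches, and the submitters' processing notes name CASAVA 1.8.2 and TopHat2 2.0 with GRCm38) and counted per gene. The counting tool, strand setting and annotation release are not given in the sources used here. The deposited values are raw counts, 1 file per tumor. Keeping unique matches alone would drop reads from repeated sequence, and without a known strand setting, reads of overlapping opposite genes cannot be told apart.

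From these counts, genes passing filterByExpr (17104 in both comparisons) were normalized by TMM factors and tested with edgeR 4.0.16 in R 4.3.3 (glmQLFit, glmQLFTest), with tumor type alone for metastatic against primary and with phenotype plus tumor type for CR against AS. P-values were adjusted over all genes tested by Benjamini-Hochberg and called under 0.05. Single genes and ratios were tested by exact two-sided permutation of the 8 tumors. Alternatives were DESeq2 1.42.0, RLE factors, every gene with at least 1 count, other covariates, subsets of tumors, each tumor left out and each possible pairing as a block. Named genes are the 8 members, the 10 and 5 genes most like Top2a and Top2b, and up to 3 genes with the smallest p of each list. Of 38115 gene identifiers, 36343 were found in GENCODE M21, which gave lengths and coordinates. The fits were tested on simulated counts. A few genes that these rules cover are not reported here.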

Additional observations from a re-analysis of the deposited data

Results flagged for a closer look

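Of 48 sets of 4 tumors examined (members and count ratios by tumor type and by phenotype), 1 held a tumor far from the others. Tdp2 in CR tumors was lowest in primary CR2, at 1096 normalized counts, while the other CR tumors lay together above it. The gap to the next tumor was 0.920 of the whole range, above Dixon's critical value for 4 samples. By chance about 1 in 20 such sets would show such a gap, so 1 of 48 is not more than chance would give. The cause was not tested.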

How the results depend on the processing

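The labels do not say which primary tumor each metastasis matches, so every way to pair them inside a phenotype (4 in all) was tried as a replicate block, added after seeing the data. These paired fits called 0 genes, turned no sign of the 8 members, and put Top2a at 1.25 to 1.30 (adjusted p 0.693 to 0.889, unadjusted 0.00477 to 0.0468). The count of genes called between metastatic and primary tumors was 0 in 18 of 19 alternatives and 180 with DESeq2 and primary CR1 left out, added after seeing the data, under which Top2a was 1.76. The CR-AS count of 2081 became 3544 with DESeq2, 4 in primary and 974 in metastatic tumors alone, 5094 with DESeq2 without primary CR1, and 481 (without metastatic AS1) to 4133 (without primary CR1) with 1 tumor left out. Top2b in CR-AS kept its direction but lost its call at 0.47 with every gene of at least 1 count, 0.62 in primary and 0.52 in metastatic tumors alone, and in 7 of 8 fits with 1 tumor left out (0.53 to 0.61 over all 8).

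Signs turned in values that never passed. Between metastatic and primary tumors, keeping every gene of at least 1 count gave -0.033 for Top2b, -0.017 for Top3a and -0.0015 for Top1mt. AS tumors alone gave -0.090 for Top3a, and CR tumors alone -0.038 for Top1mt and -0.070 for Tdp1. With 1 tumor left out, Top2b ran from -0.085 to 0.16, Top3a from -0.092 to 0.16, Top1mt from -0.12 to 0.15 and Tdp1 from -0.035 to 0.19. In CR-AS, Top1 ran from -0.23 to 0.049 and was 0.086 with DESeq2 without primary CR1. Top2a ran from -0.28 to 0.79, was -0.24 with DESeq2 without primary CR1 and -0.073 in metastatic tumors alone. The CR-AS log2 ratio of Top2a ran from -0.65 to 0.27 against Top2b, -0.047 to 1.01 against Top1, -0.33 to 0.59 against Top3a and -0.40 to 0.10 against Mki67, and the metastatic-primary ratio to Mki67 from -0.31 to 0.19. The cause of these changes was not tested. Under the alternatives, 241 fold changes of the 8 genes kept their direction and their side of the threshold, 20 turned, 10 lost the call and 1 gained it.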
